A study of Mus musculus with 9 samples.

Results

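The 10 genes described here are the paired-box transcription factor genes Pax2 and Pax8 and 8 genes of chromatin cofactors and partners named with them: Paxip1, Pagr1a, Kmt2c, Kmt2d, Kdm6a, Tle1, Tle4 and Wwtr1. They were taken by symbol from a table of 55487 mouse genes, and all 10 passed the filter on low counts. RNA of PT-22, a line of mouse cells labelled as kidney proximal tubule, was sequenced in 9 libraries of 3 groups, replicates A, B and C each. Every group carries the same genotype, Pax2-/-, Pax8fl/fl and Rosa-CreERT2, together with Pax8 in the inducible vector pTRIPZ, so that no group has intact Pax2 by label and the untreated cells already hold the vector. Day 0 cells were untreated. Day 6 cells had received 4-hydroxytamoxifen at 1 uM, which activates CreERT2 and is meant to remove the floxed Pax8. Day 12 cells had received 4-hydroxytamoxifen and then doxycycline at 1 ug/ml, which is meant to switch on the vector. The labels give 2 durations for 4-hydroxytamoxifen, 2 days and 6 days. No vehicle control, no untreated cells after day 0 and no day 12 cells without doxycycline were analysed here, so drug, time in culture and Pax8 state cannot be told apart. Whether the replicates were grown separately is not stated, so the p-values rest on a spread that may be only technical. Expression is given as TMM-normalised CPM, in which counts are scaled by library size, and genes are compared with each other only in TPM, which also corrects for transcript length.

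PAX2 and PAX8 bind DNA through a paired domain and act together in forming the nephric duct and the kidney epithelium, and PAX8 persists in tubule cells of the adult. PTIP, encoded by Paxip1, binds PAX2 and links it to the KMT2C and KMT2D methyltransferases, which set H3K4 methylation at enhancers and promoters. PA1, encoded by Pagr1a, and UTX, a demethylase of H3K27 encoded by Kdm6a, belong to the same complex. TLE1 and TLE4 are Groucho corepressors, and TLE4 can displace PTIP from PAX2 and bring in repressive enzymes instead. TAZ, encoded by Wwtr1, is the Hippo pathway effector that binds TEAD factors and has been reported as a coactivator of PAX8.

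The paired box is the stretch most alike between Pax2 and Pax8, and it is shown because counts of the 2 genes could be exchanged there. Below is a window of 120 coding bases of each gene, from the GENCODE M21 transcripts on GRCm38, 5′ to 3′, with the 13 differing bases in capitals; 107 bases (89.2%) are identical.
Pax2, coding bases 175 to 294: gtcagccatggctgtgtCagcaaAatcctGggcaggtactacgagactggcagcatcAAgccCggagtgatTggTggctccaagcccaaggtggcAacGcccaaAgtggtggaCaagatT
Pax8, coding bases 157 to 276: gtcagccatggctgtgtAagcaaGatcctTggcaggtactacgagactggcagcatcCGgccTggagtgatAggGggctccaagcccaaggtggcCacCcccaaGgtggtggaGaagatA
Even so, the transcripts of Pax2 and Pax8 shared 0 stretches of 31 identical bases, and none of the 5464 such stretches of Pax2 occurred in another gene. Of the stretches of Pax8, 5.11% occurred elsewhere, nearly all in Gm13415, an RNA of the opposite strand that held 17 to 71 counts a library. Vector and chromosomal Pax8 cannot be told apart in these whole-gene counts, and the labels do not name the deleted exons of either gene or the species of the vector's Pax8.

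The Pagr1a entry has the opposite property, shown here by its coding start, chr7:127016772-127016921 on the minus strand of GRCm38, with the start codon in capitals.
Pagr1a: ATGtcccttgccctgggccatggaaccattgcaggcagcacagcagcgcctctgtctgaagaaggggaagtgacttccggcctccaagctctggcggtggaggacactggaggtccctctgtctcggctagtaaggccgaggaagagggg
The same bases lie in 2 of the 3 annotated Pagr1a transcripts and in 3 of the 5 transcripts of Gm42742, a protein-coding model of the same strand, but not in the transcript of the overlapping Pagr1b. Gm42742 covers 98.7% of the 1430 exon bases of Pagr1a and holds 93.2% of its 31-base stretches. Counts for Pagr1a therefore depend on how reads were divided between the models.

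The libraries held 56398623 to 86767334 counts over 21213 to 22139 genes. Of 13 proximal tubule markers, 5 had a mean of 1 TPM or more, led by Aqp1 (a water channel), while Slc34a1, Slc5a2, Slc5a1, Hnf4a, Slc22a6, Slc22a8 and Slc13a3 were below 0.1 TPM in every library. The cells thus lacked most defining transporters of the labelled cell type at the level of RNA, Slc34a1 and Slc22a6 having 0 counts in all 9 libraries. The summed TPM of the 13 markers was 126 to 144 at day 0, 217 to 230 at day 6 and 241 to 278 at day 12. Aqp1 alone averaged 65.2, 184 and 216 TPM on those days, whereas Lrp2 went from 33.3 to 5.20 and 7.41 TPM, Ggt1 from 1.96 to 0.507 and 2.61, and Gatm from 29.6 to 24.5 and 26.0. The summed TPM of 6 stromal markers was 5.86 to 6.24, 25.2 to 25.4 and 34.6 to 41.2, 3 of the 6 reaching a mean of 1 TPM and Pdgfra staying below 0.1 TPM throughout. Nearly all of that difference was Acta2, at 0.970, 23.2 and 31.3 TPM, while Dcn was at 4.30, 0.400 and 5.26 TPM. Among podocyte markers, Synpo averaged 111, 68.8 and 112 TPM on days 0, 6 and 12, and Podxl 23.0, 17.3 and 21.4 TPM. Loop and distal tubule markers were below 0.1 TPM, all 5 of 5. Collecting duct and endothelial markers summed to at most 1.51 TPM in any library, and the 5 immune markers to 20.6 to 24.2 TPM. Nearly all of the immune sum was Cd68, at 21.5, 21.9 and 22.5 TPM on days 0, 6 and 12. Adgre1, Cd3e and Itgam were below 0.1 TPM in every library, and Ptprc was below 1 TPM. The share of mitochondrial counts was 6.66% to 7.18% in the day 0 and day 6 libraries and 2.10% to 3.96% at day 12. Because these are bulk libraries, a change in the cells present and a change in RNA per cell cannot be told apart, and the part of these shifts in the results below was not tested.

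Pax8, the gene the treatment targets, had higher normalised counts at day 6 and at day 12 than in untreated cells. Pax8 (ENSMUSG00000026976, chromosome 2, 24420560 to 24475599, minus strand) stood at 292, 289 and 292 CPM in the day 0 libraries A, B and C. It was 399, 405 and 411 CPM at day 6 and 496, 503 and 487 CPM at day 12. The 3 groups formed separate steps with no overlap between libraries, and the spread within a group was at most 7.8 CPM (SD, n = 3). The first step was a log2 fold change of 0.48 ± 0.029 (SE), a 39.0% increase (edgeR quasi-likelihood test, adjusted p = 8.68e-10). The second, after doxycycline, was 0.29 ± 0.029, or 22.5% (adjusted p = 1.22e-06). Both steps passed the test under all 21 alternatives, with log2 fold changes of 0.45 to 0.49 and 0.26 to 0.46. A rise in the whole-gene count does not check the deletion, since a transcript that lacks some exons is still counted, so the groups are named by day and no direction here is a response to a known PAX8 level.

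Pax2, which the genotype gives as deleted, was counted in all 9 libraries, with 1924 to 4215 counts each. Pax2 (ENSMUSG00000004231, chromosome 19, 44756045 to 44837871, plus strand) was at 30.4, 30.7 and 34.6 CPM at day 0, 47.9, 43.3 and 49.6 CPM at day 6, and 54.5, 53.7 and 48.6 CPM at day 12. Every day 6 library lay above every day 0 library (log2 fold change 0.56 ± 0.060, 47.0%, edgeR adjusted p = 8.64e-07). The day 6 and day 12 libraries overlapped, replicate C of day 12 lying below replicate C of day 6. That later difference of 0.16 ± 0.059 passed the test narrowly (adjusted p = 0.0393) and lost its call when day 6 replicate A or B or day 12 replicate A or B was left out (0.11 to 0.17, adjusted p up to 0.170) and with RLE size factors (adjusted p = 0.0525). Per length, Pax8 was far more abundant than Pax2 in every library, at 186 ± 3.4, 261 ± 18 and 358 ± 3.4 TPM against 12.7 ± 0.93, 18.5 ± 1.5 and 24.0 ± 1.4 TPM (SD, n = 3). The ratio of the 2 TPM values within a library was 14.7 ± 1.1, 14.2 ± 2.1 and 15.0 ± 1.0 in the 3 groups, so the groups' ratios overlapped while both genes' levels were higher.

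**Figure D1:**
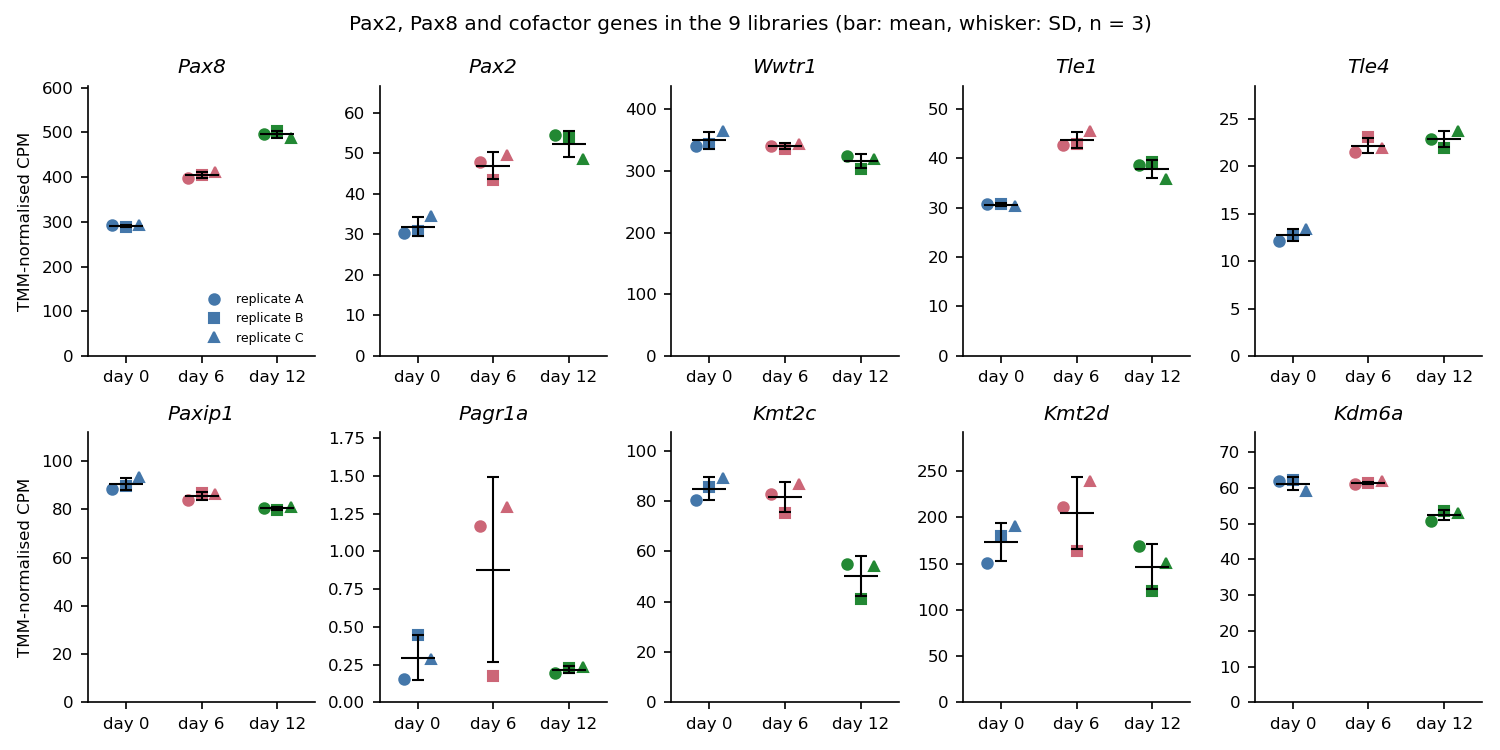
TMM-normalised CPM (vertical axes, each from 0) of the 10 genes in the 9 libraries by day, with replicates A, B and C as circle, square and triangle, the group mean as a bar and the SD as a whisker (n = 3). Pax8 forms 3 separate steps from 289 to 503 CPM, Kmt2c and Kdm6a are lower in all 3 day 12 libraries, and Pagr1a is high in only 2 of the 3 day 6 libraries.

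The transcript length behind the Pax2 count, as estimated, differed between day 0 and the later days. Dividing count by TPM gives the mean effective transcript length that the authors' quantification assigned to a gene, here scaled on 84 genes with a single transcript, whose ratio to the annotated length ran from 0.989 at the 5th percentile to 1.02 at the 95th. For Pax2 it was 3371 to 3423 bases in the day 0 libraries, 3528 to 3587 at day 6 and 3537 to 3556 at day 12, with annotated transcripts of 1814 to 4358 bases. For Pax8, whose 8 annotated transcripts span 345 to 3386 bases, it was 2116 ± 37, 2181 ± 157 and 2253 ± 61 bases, and the libraries of the groups overlapped. Tle1 also had a longer value at the later days, 2532 ± 124, 2774 ± 64 and 2876 ± 83 bases, without overlap between day 0 and the rest. In Wwtr1, with transcripts of 4533 and 4697 bases, the value ranged only from 4625 to 4633 bases. These lengths are estimates by the authors' software and were not tested.

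Across the 10 genes, 5 rose and 1 fell between day 0 and day 6, where 64.9% of all 16353 genes tested were called, 33.5% higher and 31.4% lower. Between day 6 and day 12, 2 rose and 7 fell, where 45.3% of all genes were called, 22.6% higher and 22.7% lower. Their median log2 fold change was 0.36 and then −0.16, against 0.02 and 0.01 over all genes tested. Calls were thus common among all genes in both comparisons. Of the calls counted here, the 2 for Pagr1a rest on the divided reads described above. Both medians of the 10 genes also include that entry (1.57 and −1.98), and each would be smaller in size without it.

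**Figure D2:**
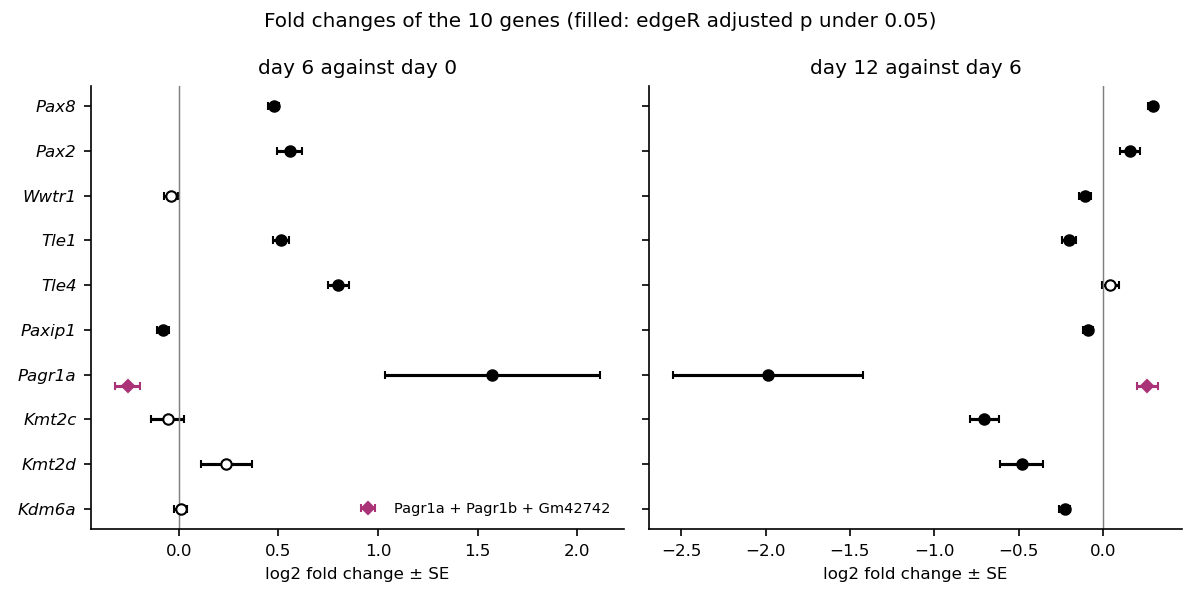
Log2 fold changes (horizontal axes, bars are ± 1 SE) of the 10 genes for day 6 against day 0 (left) and day 12 against day 6 (right), filled where the edgeR adjusted p is under 0.05. Tle4 (0.80), Pax2 (0.56), Tle1 (0.51) and Pax8 (0.48) are higher at day 6, Kmt2c (−0.70) and Kmt2d (−0.48) are lower at day 12, and the sum over the Pagr1 models (diamond) lies on the other side of 0 from the Pagr1a entry.

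Paxip1, the gene of the PTIP adaptor, changed little. Paxip1 (ENSMUSG00000002221, chromosome 5, 27740080 to 27791691, minus strand) was at 88.3, 89.6 and 93.1 CPM at day 0, 83.8, 86.8 and 86.2 CPM at day 6, and 80.7, 79.7 and 81.0 CPM at day 12. Each group lay below the one before it without overlap, by −0.08 ± 0.030 and −0.09 ± 0.030 on the log2 scale (edgeR adjusted p = 0.0347 and 0.0254). Paxip1 thus fell by 5.23% and then fell by 6.03%, and these values turned into differences of 0.04 and 0.10 on the log2(TPM + 1) scale (limma, adjusted p = 0.59 and 0.153), and either call was lost when single libraries were left out: day 0 replicate B or C or day 6 replicate A or C for the first (adjusted p up to 0.146), and day 6 replicate B or C or day 12 replicate A or B for the second (up to 0.0957). Removing the trend on transcript length described below left −0.02 for the second difference (adjusted p = 0.566).

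The TPM scale matters for every small change here. TPM has a fixed total per library. On the log2(TPM + 1) scale the median of all genes was 0.16 for day 12 against day 6, and 90.1% of calls were then higher. That share was 50.0% with TMM and 60.5% with upper-quartile factors. For day 12 against day 0 the median was 0.19 and the share of higher calls 81.3%, against 52.3% with TMM. The cause of this shift was not tested.

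Pagr1a, the gene of the PA1 subunit, cannot be followed through its own entry. Pagr1a (ENSMUSG00000030680, chromosome 7, 127015033 to 127017352, minus strand) received 13, 28 and 20 counts at day 0, 79, 13 and 75 at day 6, and 15, 17 and 14 at day 12. The entry was high in day 6 replicates A and C and as low in replicate B as in the other groups, so the libraries overlapped although the fit gave 1.57 ± 0.54 for day 6 against day 0 and −1.98 ± 0.56 for day 12 against day 6 (edgeR adjusted p = 0.0183 and 0.00954). Without day 0 replicate A, or day 6 replicate A or C, the first call was lost (adjusted p = 0.083 to 0.0899). Gm42742 received 1119 to 2096 counts in the same libraries, 91.7% to 98.9% of the counts of the 3 models together. Pagr1b, the overlapping copy, received 2 to 42 counts.

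Summed over Pagr1a, Pagr1b and Gm42742, the locus gave the opposite direction to the Pagr1a entry. The sum averaged 25.5 ± 0.62, 21.4 ± 0.84 and 25.6 ± 2.7 CPM on days 0, 6 and 12 (SD, n = 3). It was lower at day 6 by −0.26 ± 0.062 (log2, edgeR adjusted p = 0.0019) and higher at day 12 than at day 6 by 0.26 ± 0.062 (adjusted p = 0.00307). Day 12 and day 0 differed by 0.0043 ± 0.061 (adjusted p = 0.957). The sum also holds reads of the longer Gm42742 transcripts outside Pagr1a, so it is the level of the locus and not of PA1 mRNA alone. It was added after the overlap had been seen.

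**Figure D3:**
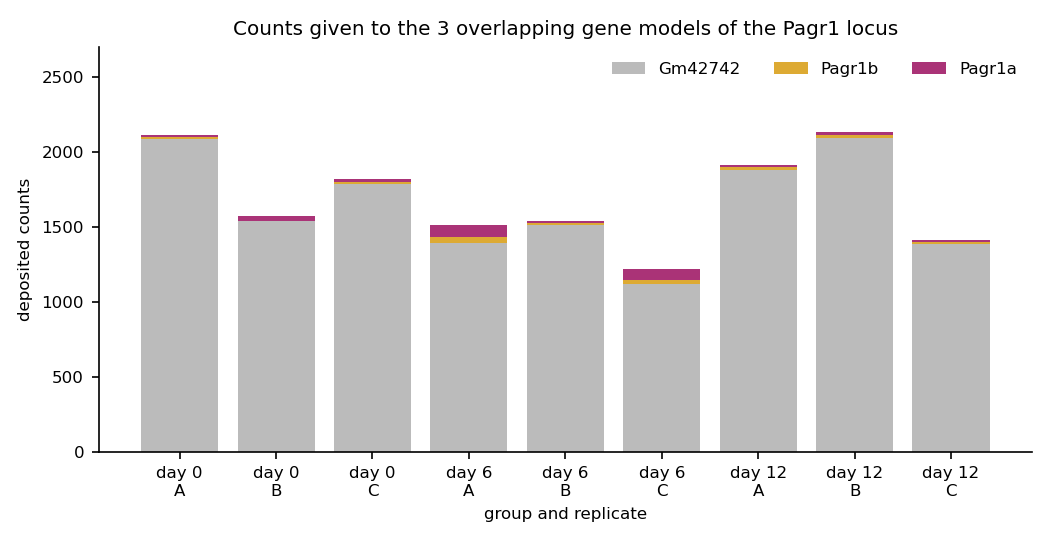
Deposited counts (vertical axis, from 0) of the 3 overlapping models of the Pagr1 locus in each of the 9 libraries, stacked. Gm42742 takes 1119 to 2096 counts and at least 91.7% of each bar, and the Pagr1a segment is largest in day 6 replicates A (79 counts) and C (75 counts).

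The methyltransferase gene Kmt2c was lower after doxycycline in every library. Kmt2c (ENSMUSG00000038056, chromosome 5, 25271798 to 25498783, minus strand) was at 80.2, 85.4 and 89.0 CPM at day 0 and 82.9, 75.2 and 86.8 CPM at day 6. It then stood at 55.1, 41.1 and 54.3 CPM at day 12. The day 0 and day 6 libraries overlapped (−0.06 ± 0.083, edgeR adjusted p = 0.577), while all 3 day 12 libraries lay below all others (−0.70 ± 0.085 against day 6, where it fell by 38.6%, adjusted p = 1.03e-05). The call held in all 21 alternatives, at −0.36 to −0.78.

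Its paralog Kmt2d gave a less separated picture. Kmt2d (ENSMUSG00000048154, chromosome 15, 98831669 to 98871204, minus strand) was at 151, 179 and 190.2 CPM at day 0, 211, 163 and 239 CPM at day 6, and 169, 121 and 150.2 CPM at day 12. Replicate B was the lowest of its group at day 6 and at day 12, and each pair of groups overlapped. Day 12 was lower than day 6 by −0.48 ± 0.13 (adjusted p = 0.00620), and day 6 did not pass the test against day 0 (0.24 ± 0.13, adjusted p = 0.112). The latter passed without day 6 replicate B (0.36, adjusted p = 0.0114), with the length trend removed (0.17, adjusted p = 0.0372) and without the filter (0.23, adjusted p = 4.80e-10). The fall at day 12 did not pass on the TPM scale, at −0.10 for log2(TPM + 1) (limma, adjusted p = 0.588) and −0.26 after centring on the median gene (adjusted p = 0.153). In TPM, Kmt2d exceeded Kmt2c within each library by 1.62 ± 0.11 times at day 0, 2.02 ± 0.29 times at day 6 and 2.67 ± 0.23 times at day 12. The day 12 ratios lay above all others. These ratios also depend on the estimated transcript lengths, since a shorter length raises TPM. The estimate for Kmt2d was 11258 to 12317 bases at day 6 and 9717 to 12008 at day 12. For Kmt2c it was 9487 to 9570 and 9586 to 9792 bases.

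Both genes have very long transcripts, and long transcripts as a class were lower at day 12. Over the 340 genes whose longest annotated transcript has 10000 bases or more, the median log2 fold change for day 12 against day 6 was −0.30, with −0.70 at the 10th and 0.18 at the 90th percentile. Over 2763 genes of 5000 to 10000 bases it was −0.09, over 8504 genes of 2000 to 5000 bases 0.02, and over 4729 shorter genes 0.07. Kmt2c (14967 bases) lay at the lower edge of its class, with 9.71% of the class below it, and Kmt2d (19823 bases) had 24.4% of the class below it. With a length trend taken out of each library, Kmt2c still fell (−0.36, edgeR adjusted p = 2.80e-06) and Kmt2d did not pass (−0.05, adjusted p = 0.577). Among these long genes, day 12 replicate B, in which both genes were lowest and the mitochondrial share was the highest of the group, lay −0.12 from the mean of its group. Between day 0 and day 6 the medians of the 4 classes were 0.01 to 0.06, and the cause of the later trend was not tested.

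**Figure D4:**
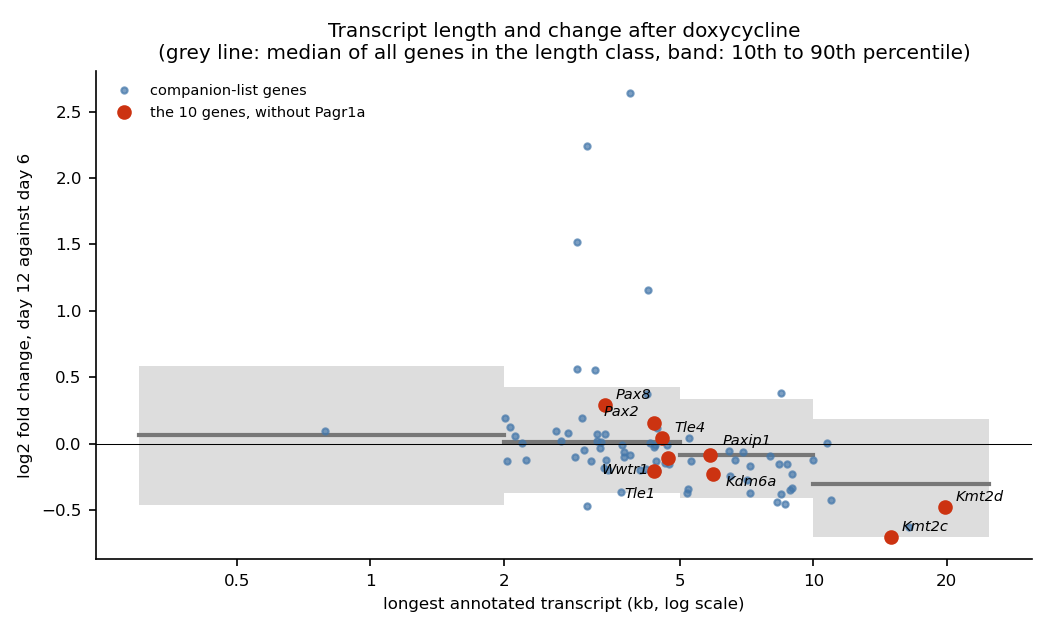
Log2 fold change of day 12 against day 6 (vertical axis) by longest annotated transcript in kb (log scale) for the 10 genes without Pagr1a (red) and the companion genes (blue), over the median (grey line) and the 10th to 90th percentile (band) of all genes in 4 length classes. The median drops from 0.07 in the shortest class to −0.30 in the longest, Kmt2c and Kmt2d lie within or at the edge of that last band, and Pax8 and Pax2 lie above the median of theirs.

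Kdm6a, the UTX gene, did not pass the test at day 6 and was lower at day 12. Kdm6a (ENSMUSG00000037369, chromosome X, 18162575 to 18279936, plus strand) was at 62.0, 62.2 and 59.0 CPM at day 0, 61.2, 61.3 and 61.8 CPM at day 6, and 50.8, 53.5 and 53.0 CPM at day 12. Day 0 and day 6 overlapped (0.0086 ± 0.033, adjusted p = 0.834), and all day 12 libraries lay below all others (−0.23 ± 0.033 against day 6, where it fell by 14.7%, edgeR quasi-likelihood adjusted p = 5.09e-05). Kdm6a has a longest transcript of 5935 bases, and the fall remained with the length trend removed (−0.16, adjusted p = 0.00182) and on TPM centred on the median gene (−0.15, adjusted p = 0.0468), but TPM without centring gave 0.02 (adjusted p = 0.81). Relative to Kdm6b, another H3K27 demethylase gene, its TPM was 2.05 ± 0.26 times as high at day 0, 1.49 ± 0.087 times at day 6 and 1.43 ± 0.097 times at day 12.

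The Groucho gene Tle4 had the largest early change of the 10 apart from the Pagr1a entry. Tle4 (ENSMUSG00000024642, chromosome 19, 14448150 to 14598051, minus strand) was at 12.1, 12.7 and 13.4 CPM at day 0, 21.5, 23.1 and 21.9 CPM at day 6, and 22.9, 22.0 and 23.7 CPM at day 12. It rose by 0.80 ± 0.052 (74.2%, edgeR adjusted p = 1.89e-09) and then differed by 0.04 ± 0.049 (adjusted p = 0.518), the later groups overlapping. Only TPM without centring gave that second difference a call (0.23, adjusted p = 0.0153).

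Tle1 rose and then came part of the way down. Tle1 (ENSMUSG00000008305, chromosome 4, 72117142 to 72200919, minus strand) was at 30.7, 30.8 and 30.2 CPM at day 0, 42.6, 42.9 and 45.5 CPM at day 6, and 38.6, 39.2 and 35.7 CPM at day 12. The 3 groups did not overlap (0.51 ± 0.042 and then −0.20 ± 0.041, edgeR adjusted p = 2.84e-08 and 0.000887). On the log2(TPM + 1) scale the second difference was −0.04 (adjusted p = 0.513), and −0.20 after centring (adjusted p = 0.0112). The ratio of Tle1 to Tle4 in TPM went from 4.23 ± 0.41 at day 0 to 3.17 ± 0.11 at day 6 and 2.58 ± 0.24 at day 12, with no overlap between the groups. Tle1 and Tle4 share 80 stretches of 31 bases, 1.4% of those of Tle4.

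Wwtr1, the TAZ gene, was the second most abundant of the 10 and the least changed over the first interval after Kdm6a. Wwtr1 (ENSMUSG00000027803, chromosome 3, 57455649 to 57575910, minus strand) was at 341, 343 and 365 CPM at day 0, 341, 336 and 345 CPM at day 6, and 325, 304 and 320.3 CPM at day 12. Day 0 and day 6 overlapped (−0.04 ± 0.035, edgeR adjusted p = 0.361), and all day 12 libraries were below all others (−0.11 ± 0.036 against day 6, adjusted p = 0.0241). Here Wwtr1 fell by 7.11%, which lost its call without day 6 replicate A or C or day 12 replicate B (adjusted p = 0.0658 to 0.0915) and with upper-quartile factors (adjusted p = 0.125). On TPM centred on the median gene it did not pass either (−0.055, limma, adjusted p = 0.265), and TPM without centring gave 0.11 (adjusted p = 0.0772). Its TPM was 3.22 ± 0.13 times that of Yap1, the paralogous effector, at day 0 and 2.64 ± 0.083 and 2.72 ± 0.066 times at days 6 and 12.

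Ordered by TPM, the day 0 libraries put Pax8 first at 186 and Wwtr1 next at 102. Kdm6a (28.9), Paxip1 (26.5), Kmt2d (19.5) and Tle1 (16.4) followed, with no overlap between libraries of neighbours. Pax2 (12.7) and Kmt2c (12.1) overlapped, and Tle4 was last at 3.88 TPM among the 9 genes with usable counts. At day 12 the top was the same, with Pax8 at 358 and Wwtr1 at 111 TPM. Kdm6a and Paxip1 then overlapped at 29.2 and 29.1 TPM, and Kmt2d (22.5) overlapped both Pax2 (24.0) and Tle1 (21.4), which did not overlap each other. At the bottom, Kmt2c (8.48) and Tle4 (8.34) overlapped. Pax2 thus moved from level with Kmt2c at day 0 to well above it at day 12, and Kmt2c from well above Tle4 to level with it.

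Day 12 against day 0 spans both treatments and shares its libraries with the comparisons above, so its values are not separate evidence. Of the 10 genes, 4 were higher and 4 lower, where 66.4% of all genes tested were called, 34.7% higher and 31.7% lower. The higher genes were Tle4 (0.84 ± 0.051), Pax8 (0.77 ± 0.029), Pax2 (0.71 ± 0.060) and Tle1 (0.31 ± 0.042), with edgeR adjusted p of at most 9.74e-06. The lower were Kmt2c (−0.76 ± 0.085, adjusted p = 1.34e-06), Kdm6a (−0.22 ± 0.033, adjusted p = 2.69e-05), Paxip1 (−0.17 ± 0.030, adjusted p = 0.000166) and Wwtr1 (−0.14 ± 0.035, adjusted p = 0.00214). On log2(TPM + 1) without centring, the last 3 of these gave 0.01, 0.13 and 0.12, and the opposite direction passed the test for Wwtr1 (limma, adjusted p = 0.0459). With 0.1 added it passed for Wwtr1 (0.12, adjusted p = 0.0446) and Paxip1 (0.14, adjusted p = 0.0491). Kmt2d (−0.24 ± 0.13, adjusted p = 0.106) and the Pagr1a entry did not pass. Neither the DNA-binding factors nor the Groucho genes were back at their day 0 level at day 12. In each of these 4 genes all day 12 libraries lay above all day 0 libraries. The share of all genes that separate in this way was not counted, so the separation is not read as particular to them.

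To place the 10 genes among their pathways, 79 companion genes were followed in 8 lists, of which 72 passed the filter. Between day 0 and day 6, 23 rose and 31 fell, beside the 33.5% and 31.4% of all genes tested. Their median log2 fold change was −0.03. Of the 5 other subunits of the KMT2C and KMT2D complex, 0 rose and 3 fell: Dpy30, a core subunit, from 43.5 ± 2.5 to 34.2 ± 0.64 CPM (−0.35, edgeR adjusted p = 5.36e-06), Ash2l from 95.5 ± 2.1 to 80.4 ± 0.91 (−0.25, adjusted p = 8.50e-06), and Wdr5, the shared scaffold, from 76.8 ± 2.3 to 69.8 ± 1.4 (−0.14, adjusted p = 0.00139). Among 9 genes of other H3K4 methyltransferase complexes, 4 rose, among them the methyltransferase gene Setd1b (33.3 ± 1.8 to 52.9 ± 4.9 CPM, 0.67) and Wdr82 (0.24), and 4 fell, among them Psip1 (−0.28). Of 5 H3K4 demethylase genes, Kdm5b rose (27.03 ± 1.1 to 41.8 ± 1.2 CPM, 0.63), Kdm5a fell (−0.13) and 3 did not pass, among them Kdm5d at about 1 CPM (0.16, adjusted p = 0.391).

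The genes of the opposing marks and corepressors moved in both directions over the same interval. Of 13 genes of PRC2, which sets H3K27 methylation, and of H3K27 demethylases, 4 rose and 6 fell. Over all genes tested, 33.5% rose and 31.4% fell. The PRC2 accessory gene Phf1 rose from 25.5 ± 0.59 to 53.7 ± 0.62 CPM (1.07, edgeR adjusted p = 3.61e-12), with 39.3% of its exon bases shared with Cuta on the other strand. Mtf2 rose by 0.36, and the methyltransferase gene Ezh1 fell from 71.3 ± 0.30 to 47.9 ± 1.0 CPM (−0.57, adjusted p = 5.56e-10). Of 9 Groucho relatives and partners, 1 rose and 5 fell. Tle3 was the one that rose, from 44.5 ± 1.6 to 84.5 ± 0.98 CPM (0.92, adjusted p = 6.57e-12). The arginine methyltransferase gene Prmt5 and the phosphatase gene Ppm1b, both reported in the control of PAX2 by TLE4, fell from 101 ± 5.9 to 69.8 ± 0.90 and from 121 ± 4.9 to 88.8 ± 1.4 CPM (−0.54 and −0.44, adjusted p = 8.26e-09 and 1.25e-08). The other Tle genes of the list, named here to complete it, did not pass: Tle2 (0.19), Tle5 (−0.08) and Tle6 (−0.03, edgeR adjusted p = 0.0881, 0.0771 and 0.646). The corepressor genes Tle1, Tle3 and Tle4 were thus higher at day 6, not every Tle gene, and genes of 2 enzymes reported with TLE4 were lower.

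Around Wwtr1, 8 of 18 Hippo and TEAD genes rose between day 0 and day 6 and 6 fell, beside 33.5% and 31.4% of all genes tested. The smallest adjusted p belonged to 3 genes of upstream or competing inhibitors, all higher: Vgll4, a TEAD-binding competitor, from 35.7 ± 1.4 to 79.6 ± 3.3 CPM (1.16, edgeR adjusted p = 8.00e-13), Nf2 from 127 ± 3.1 to 202 ± 3.0 (0.67) and Amotl1 from 67.2 ± 1.6 to 117 ± 4.3 (0.80, both adjusted p at most 2.99e-11). Other inhibitors of the list fell, named here after their values were seen, with edgeR adjusted p of at most 0.00124. They were Ptpn14 (−0.54), the kinase genes Stk3 (−0.49), Lats1 (−0.29) and Stk4 (−0.16), and Mob1b (−0.16). The kinase gene Lats2 rose (0.32, adjusted p = 5.26e-07), as did Amot (0.08, adjusted p = 0.0458). Sav1, Mob1a and Amotl2 did not pass. Of the 7 other Pax genes only 3 passed the filter, all at low levels. Pax3 rose from 3.21 ± 0.049 to 5.02 ± 0.038 CPM (0.64, adjusted p = 1.70e-05), and Pax6 fell from 2.63 ± 0.38 to 1.55 ± 0.090 (−0.77, adjusted p = 0.000443). Pax9, below 1 CPM, fell as well (−1.61 ± 0.42, adjusted p = 0.00363). Of 10 tested genes reported elsewhere to depend on PAX2 or PAX8, 4 rose and 4 fell. Cdh16, the kidney cadherin gene, fell from 831 ± 16 to 122 ± 2.6 CPM (−2.77, adjusted p = 5.93e-18) and Npnt from 465 ± 3.6 to 278 ± 8.2 (−0.74), while Wnt4 rose from 36.3 ± 1.5 to 68.3 ± 0.78 (0.91, adjusted p = 6.05e-12). Cdh16 thus fell in the same libraries in which the Pax8 count was higher.

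Between day 6 and day 12 most companion genes with a call fell, 33 against 11 that rose of the 72, beside 22.7% and 22.6% of all genes, with a median of −0.10. With upper-quartile factors 17 rose, and on the log2(TPM + 1) scale, with its shift of all genes, 31 rose and 5 fell. Several of the falls were in genes with long transcripts. Among the 9 genes of other H3K4 methyltransferase complexes 5 fell, with Kmt2a from 139 ± 10 to 89.95 ± 16 CPM (−0.63, edgeR adjusted p = 6.87e-05, 16470 bases), Hcfc1 (−0.44, adjusted p = 1.42e-05) and Kmt2b (−0.38, adjusted p = 7.16e-06) the strongest by p. Of the 5 complex subunits, Ncoa6, specific to the KMT2C and KMT2D complex, fell (102 ± 3.9 to 84.2 ± 7.0 CPM, −0.28, adjusted p = 0.000452), Wdr5 fell (−0.10, but 0.10 on the log2(TPM + 1) scale), and Dpy30 did not pass (0.10, adjusted p = 0.0999). Kdm5a fell from 179 ± 3.3 to 133 ± 7.6 CPM (−0.42, adjusted p = 5.18e-07, 10944 bases), Kdm5b fell by 0.15 (but gave 0.03 with the length trend removed), and Kdm1a did not pass (−0.05, adjusted p = 0.243) but was called higher on the log2(TPM + 1) scale (0.15, limma, adjusted p = 0.0095).

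Some companions came back towards day 0 at day 12, and others moved further from it. Ezh1 rose again, from 47.9 ± 1.0 to 62.2 ± 2.3 CPM (0.38, edgeR adjusted p = 4.80e-07), and Tle3 fell from 84.5 ± 0.98 to 61.7 ± 2.7 CPM (−0.45, adjusted p = 1.71e-07), as Tle1 did. The list counts that follow stand beside 22.6% of all genes tested called higher and 22.7% called lower. Of the 13 genes of PRC2 and H3K27 demethylases 2 rose and 6 fell, with Aebp2 at −0.23 (adjusted p = 1.01e-05) and Mtf2 at −0.20 (but 0.06 on the log2(TPM + 1) scale). Of the 9 Groucho relatives and partners 1 rose (Tle6, 0.19, adjusted p = 0.0174) and 2 fell, Tle3 and Hdac1 (−0.13, but 0.07 on the log2(TPM + 1) scale). In the Hippo list 1 of 18 genes rose and 12 fell with TMM. Over all companion genes most calls were higher on the log2(TPM + 1) scale, as given above, so this count is not read as a fall of the pathway. Among the 12 were the kinase genes Lats1 (115 ± 3.7 to 88.5 ± 4.0 CPM) and Lats2 (73.6 ± 1.3 to 56.7 ± 1.4 CPM), both at −0.38 (edgeR adjusted p of at most 4.56e-06). Their cofactor gene Mob1b also fell (−0.34, adjusted p = 3.58e-06). Lats2 thereby came back near its day 0 level of 58.8 ± 2.1 CPM. Lats1 (140 ± 6.8 CPM at day 0), Mob1b (140 ± 1.7) and Hdac1 (140 ± 3.5) fell at both steps.

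Genes reported to depend on PAX2 or PAX8 rose in 5 of 10 after doxycycline and fell in 4, beside 22.6% and 22.7% of all genes, with a median of 0.47 against 0.01 over all genes. They include Wt1, called higher on 101 counts over the 9 libraries (2.24), and Slc5a5, with 78 counts and no call (0.56). Both lie above that median, which would be lower without them, so it is not read as a shift of the list. Lhx1, a nephric lineage factor, rose from 3.76 ± 0.36 to 23.5 ± 2.0 CPM (2.64 ± 0.082, edgeR adjusted p = 5.02e-12), having been at 2.12 ± 0.14 at day 0. Cdh16 rose from 122 ± 2.6 to 349 ± 3.6 CPM (1.52 ± 0.031, adjusted p = 4.31e-14), under its day 0 level of 831 ± 16. Gdnf fell from 58.5 ± 1.0 to 45.5 ± 2.0 CPM (−0.36, adjusted p = 2.25e-06). Of the other Pax genes, Pax9 rose (1.15 ± 0.44, adjusted p = 0.0453) but gave −0.04 on median-centred TPM, and Pax3 and Pax6 did not pass (−0.08 and −0.20, adjusted p = 0.478 and 0.344; 0.07 and 0.01 on the log2(TPM + 1) scale).

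**Figure D5:**
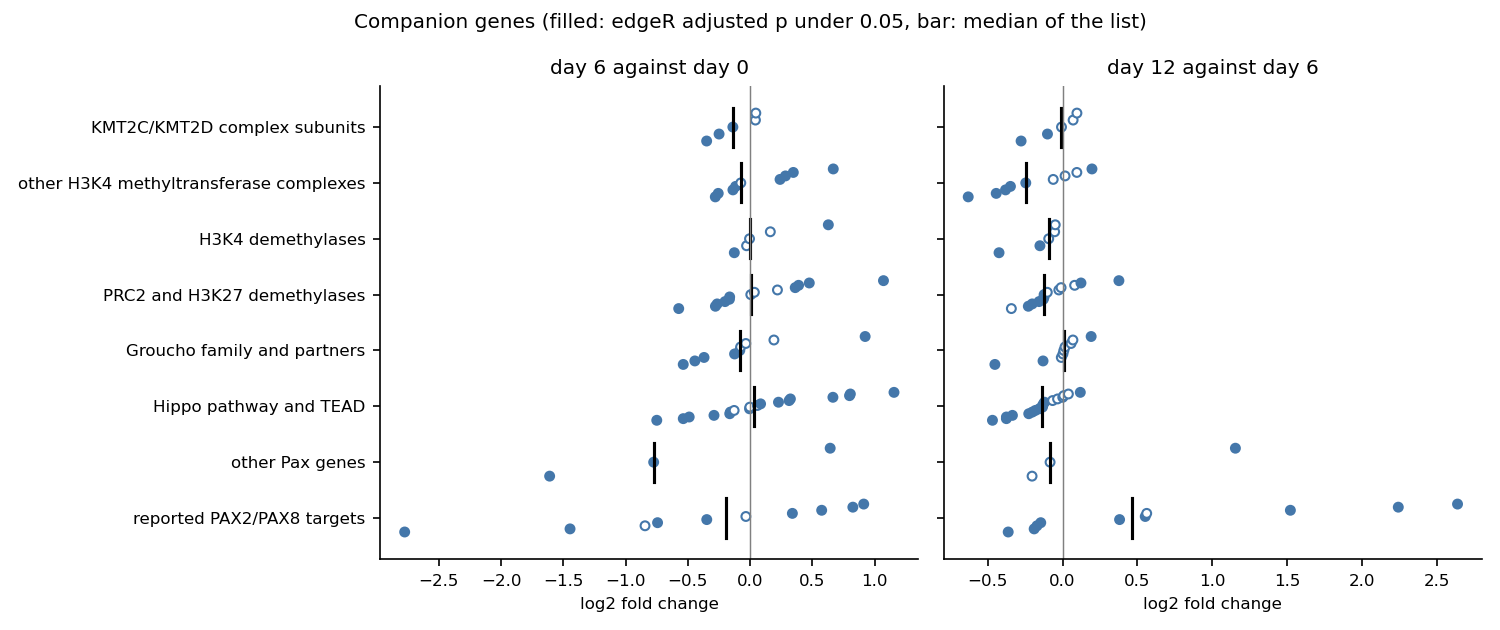
Log2 fold changes (horizontal axes) of the tested companion genes by list for day 6 against day 0 (left) and day 12 against day 6 (right), filled where the edgeR adjusted p is under 0.05, with the median of each list as a bar. At day 6 the lists spread to both sides of 0, from Cdh16 at −2.77 to Vgll4 at 1.16, and at day 12 the reported PAX targets reach 2.64 (Lhx1) while most filled points of the other lists lie below 0.

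The genes closest to Pax8 and Pax2 in pattern were ranked over the 9 libraries by the Euclidean distance between log2 CPM after subtracting each gene's mean, among 10280 genes with at least 5 CPM. Nearest to Pax8 were Plod1, a collagen lysyl hydroxylase gene, at 0.1003, then Plekhh3 (0.120), Sema3b (0.121), Rtl6 (0.142) and Tmem104 (0.143). Plod1 was at 55.3, 79.7 and 94.1 CPM on average at days 0, 6 and 12. Nearest to Pax2 were Pml, the gene of the nuclear body protein, at 0.164, then Cbarp (0.195), Jup, the plakoglobin gene (0.207), Arhgef18 (0.220) and Cacna1g (0.221). All 10 share the 9 libraries and their 3 groups with Pax8 and Pax2, so a small distance mainly states that the same 2 steps, of about the same size, were measured.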

How the data were processed

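RNA of PT-22 cells was sequenced in 9 libraries, 3 each for D0, D6 and D12, grouped by the titles in the labels. The authors deposited whole-number counts per gene and, separately, TPM. The build GRCm38 and the tools STAR 2.7.8a, RSEM 1.3.3, cutadapt 2.3 and FastQC 0.11.8 are listed per the submitters' processing notes. Their roles, the annotation, the strand setting and the filters used were not given in the sources used here. Counts made by RSEM would be rounded estimates that divide reads between overlapping models. Gene positions, transcripts and sequences came from GENCODE M21 on GRCm38, which held 55227 of the 55487 gene identifiers. The rows for 4 transgenes (0.00204% to 0.00284% of a library's counts) entered neither library sizes nor tests.

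Genes were filtered with filterByExpr by group, leaving 16353. With TMM scaling they were tested in edgeR 4.0.16 (R 4.3.3) by the quasi-likelihood F test, with 6 residual degrees of freedom and 1 mean per group. Benjamini-Hochberg adjustment ran over all genes tested, with a threshold of 0.05. SE values were derived from the F statistic, and a prior count of 2 was used for log2 CPM. With 56398623 to 86767334 counts a library, 1 count was worth 0.0115 to 0.0177 CPM; these limits cover counting error only. On simulated data for D6 against D0 over 16353 genes, 69% of genes changed by 1.5-fold and 85% of those changed by 2-fold were recovered. Only a small part of the genes was changed there, all upward in D6, whereas 64.9% were called in the real comparison. These rates therefore do not give the sensitivity in these data.

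Per comparison 18 alternatives were planned and 3 added after the data had been seen: Pagr1a summed with its overlapping models, TPM centred on the median gene, and a length trend removed (a lowess of log2 CPM on the longest transcript, taken as an offset per library). The planned ones were upper-quartile and RLE factors, DESeq2 1.42.0, no filter, limma 3.58.1 on log2(TPM + 1) and log2(TPM + 0.1), only 2 groups, the replicate letter as a block, no mitochondrial genes, and each of the 9 libraries left out. The 10 genes and the 8 lists (79 genes) were chosen with earlier results of these data known. Companion genes are named where they had one of the 3 smallest adjusted p of their list in a comparison. Some Groucho and Hippo genes are named beyond that rule, as stated there. The value of 1 marker gene is not reported here. Shared sequence was counted as identical stretches of 31 bases between annotated transcripts.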

Additional observations from a re-analysis of the deposited data

Results flagged for a closer look

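The table has rows for 4 transgenes that the comparisons do not use, and 2 of them held counts. The row for Cre, the recombinase of the genotype, averaged 21.8 ± 0.63 CPM of the library total in the day 12 libraries (21.4 to 22.5), above the day 0 level of 19.7 ± 1.3 (18.2 to 20.7), while the day 6 libraries were lower at 16.9 ± 0.44 (SD, n = 3). The row for tdTomato, a red fluorescent protein that the genotype does not name, averaged 2.58 ± 0.38, 4.08 ± 0.27 and 5.37 ± 0.66 CPM on days 0, 6 and 12, with 139 to 427 counts a library and no overlap between the groups. The rows for eGFP and mCherry held 0 counts in all 9 libraries. These rows were set apart because they lie outside the main measurement and exceed the untreated level, and the differences were not tested.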

How the results depend on the processing

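Every call for Pax8, and the calls for Pax2, Tle1 and Tle4 against day 0 and for Kmt2c at day 12, held in all 21 alternatives. Fewer or more genes were called under some settings. For D6 against D0, 0 of the 10 genes were called lower without the filter, on log2(TPM + 1), on log2(TPM + 0.1) and on median-centred TPM, and 2 with Pagr1a summed or with the length trend removed; leaving out a library gave 0 to 1, and 4 to 6 higher. For D12 against D6, RLE factors left 1 higher (1 to 2 without single libraries), and 1 was lower on either TPM scale, 3 on median-centred TPM and 5 to 7 without single libraries. For D12 against D0, 1 was lower on either TPM scale and 2 on median-centred TPM. Of the companion genes, log2(TPM + 1) called 20 lower for D6 against D0, 31 higher and 5 lower for D12 against D6 (31 and 5 also with 0.1 added), and 38 higher and 13 lower for D12 against D0 (38 and 12 with 0.1 added). Upper-quartile factors called 17 higher and median-centred TPM 21 lower for D12 against D6. TPM is scaled to a fixed total, and on that scale the median of all genes was shifted. The cause of that shift and of the other changes was not tested.

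Several differences changed sign. On log2(TPM + 1) and log2(TPM + 0.1), D12 against D6 turned to 0.096 and 0.099 for Paxip1, 0.016 and 0.016 for Kdm6a, 0.11 and 0.11 for Wwtr1, 0.10 and 0.11 for Wdr5, 0.15 and 0.15 for Kdm1a (called higher, adjusted p = 0.0095 and 0.0097), 0.061 and 0.062 for Mtf2, 0.067 and 0.068 for Hdac1, 0.071 and 0.098 for Pax3, and 0.0098 and 0.018 for Pax6. D12 against D0 turned to 0.13 and 0.14 for Paxip1, 0.19 and 0.20 for Kmt2d, 0.014 and 0.015 for Kdm6a, and 0.12 and 0.12 for Wwtr1, called higher in both and for Paxip1 in the second. D6 against D0 turned to 0.036 and 0.038 for Paxip1, −0.0014 and −0.0014 for Kdm6a, and 0.012 and 0.013 for Wwtr1. Kdm6a, near 0 in D6 against D0, also gave −0.0045 (RLE), −0.0068 (DESeq2), −0.0033 (2 groups), −0.035 (median-centred TPM), −0.032 (length trend removed), and −0.017 and −0.0055 without D0 replicate C and D6 replicate B (−0.017 to 0.0215 over all single libraries left out). Median-centred TPM gave 0.0025 for Paxip1 and −0.014 for Kdm5d in D6 against D0 and −0.040 for Pax9 in D12 against D6. With the length trend removed, Kdm5b gave 0.028 in D12 against D6 and Kmt2d 0.12 in D12 against D0. Pax3 gave 0.0025 without D12 replicate C (−0.14 to 0.0025 over all left out), and Pagr1a summed with its overlapping models gave −0.26, 0.26 and 0.0043.

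Same-letter libraries did not deviate together over all genes (correlations of −0.083 to 0.078, not every library correlating best with its own letter). Such correlations cannot show whether the libraries of a letter shared a culture or a batch. With the replicate block, 5 and 1, 2 and 7, and 4 and 5 of the 10 genes were called higher and lower in the 3 comparisons. The companion genes called were 23 and 30, 10 and 33, and 23 and 33. The Pagr1a entry held 13 to 79 counts a library, the whole of that range among the D6 libraries.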
